A study of Mus musculus with 25 samples.

Results

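A set of 10 genes of neutrophil granules, cytosol and receptors were followed in the lungs of mice that received thoracic radiation, an analogue of sphingosine-1-phosphate, both or neither. The 10 genes were S100a8, S100a9, Csf3r, Cxcr2, Trem1, Stfa2l1, Lcn2, Ngp, Camp and Ltf, out of 18193 genes with a probe set of a single gene symbol on the array. Their symbols matched 11 probe sets, and for each gene the brightest probe set, by its mean over the 25 arrays, was used. Of the 10 genes, 8 had a mean level above the 40th percentile of all probe sets except array controls (a log2 level of 6.49). These 8 entered the tests, with 12937 genes in all. The means of Cxcr2 (6.21) and Camp (6.41) lay just below that limit, and Trem1 (6.81) and Ngp (6.88) lay just above it. The mean includes every group, so a gene that is dim in most groups could pass through the arrays on which it was high. For Stfa2l1 (7.20) the group means of control (6.40), FTY (6.36) and SEW (5.93) lay below the limit. That of fTyS was 6.60 and that of radiation 10.20. Its pass thus leaned on the irradiated arrays, a limit on its calls and on the counts that hold it.

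All mice were female wildtype C57BL/6J animals of 14 to 17 weeks and 20 to 25 g, and whole lung was measured on 1 Affymetrix array per mouse. The irradiated groups were radiation+fTyS, radiation+SEW, radiation+FTY and radiation alone (3 mice each), after a single dose of 25 Gy to the thorax. The unirradiated groups were fTyS, SEW and FTY (3 mice each) and control (4 mice given PBS). FTY is FTY720 (fingolimod), an analogue of sphingosine that cells phosphorylate into a ligand of sphingosine-1-phosphate receptors. The label fTyS stands for (S)-FTY720-phosphonate, which carries a phosphonate where phosphorylated FTY720 carries its phosphate. The label SEW stands for SEW-2871, which activates the receptor S1pr1 and is not built like sphingosine. Each compound was given at 0.1 mg/kg into the peritoneum 2 times a week. The time of collection after irradiation is not given in the sources used here.

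Neutrophils are short-lived granulocytes made in the bone marrow, and Csf3, the granulocyte colony-stimulating factor, drives their production through the receptor Csf3r. Mature cells leave the marrow and enter inflamed tissue by way of chemokine receptors such as Cxcr2, whereas genes for proteins of the secondary granules (Ngp, Camp, Lcn2 and Ltf) are transcribed mainly in marrow precursors. Lcn2 and Ltf are also made by airway epithelium and glands, and S100a8 and S100a9 are also made by monocytes. In whole lung, fewer cells of a type and less RNA per cell cannot be told apart.

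The sequences just before the starts of these genes are shown for 4 genes whose levels rose together after radiation and for Ngp, whose rise did not pass the test. They are from RefSeq (GRCm38.p6), cover 250 bases before to 50 bases after the gene's start, and were found for 10 of 10 genes. Capitals mark matches, on either strand, to GAGGAA (the core bound by the myeloid factor PU.1) or to TTGCNNAA (a site of C/EBP factors), and no matches overlapped.
S100a8 (chr3:90668821-90669120, plus strand): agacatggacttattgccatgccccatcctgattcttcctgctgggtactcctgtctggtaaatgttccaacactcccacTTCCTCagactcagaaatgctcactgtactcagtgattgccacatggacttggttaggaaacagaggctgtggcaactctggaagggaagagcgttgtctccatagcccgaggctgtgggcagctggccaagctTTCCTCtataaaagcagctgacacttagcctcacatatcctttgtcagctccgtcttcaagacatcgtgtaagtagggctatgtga
S100a9 (chr3:90695672-90695971, minus strand): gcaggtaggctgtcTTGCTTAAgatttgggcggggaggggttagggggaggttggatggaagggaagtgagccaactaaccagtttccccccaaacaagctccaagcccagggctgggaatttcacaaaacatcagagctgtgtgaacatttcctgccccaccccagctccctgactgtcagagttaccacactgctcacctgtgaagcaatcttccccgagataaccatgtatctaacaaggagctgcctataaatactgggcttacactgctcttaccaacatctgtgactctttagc
Csf3r (chr4:126024409-126024708, plus strand): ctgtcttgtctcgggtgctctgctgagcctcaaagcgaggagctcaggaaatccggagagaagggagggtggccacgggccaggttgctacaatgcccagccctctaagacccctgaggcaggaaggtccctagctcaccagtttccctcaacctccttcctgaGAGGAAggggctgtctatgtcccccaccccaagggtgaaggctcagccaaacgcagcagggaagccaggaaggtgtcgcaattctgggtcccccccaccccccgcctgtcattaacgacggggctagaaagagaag
Stfa2l1 (chr16:36156561-36156860, plus strand): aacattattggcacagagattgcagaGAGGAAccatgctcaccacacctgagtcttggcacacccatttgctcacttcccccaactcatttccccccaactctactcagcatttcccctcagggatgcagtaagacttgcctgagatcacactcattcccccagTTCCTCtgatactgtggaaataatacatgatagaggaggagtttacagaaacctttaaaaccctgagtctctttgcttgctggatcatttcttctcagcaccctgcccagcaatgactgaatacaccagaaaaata
Ngp (chr9:110419558-110419857, plus strand): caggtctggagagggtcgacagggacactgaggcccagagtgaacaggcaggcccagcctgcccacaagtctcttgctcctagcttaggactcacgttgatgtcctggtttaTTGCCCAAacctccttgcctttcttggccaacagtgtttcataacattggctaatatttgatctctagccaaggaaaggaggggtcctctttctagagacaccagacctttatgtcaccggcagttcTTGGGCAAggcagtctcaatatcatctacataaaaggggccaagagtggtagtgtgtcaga

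S100a8 and Stfa2l1 each held 2 matches to GAGGAA and Csf3r held 1, while S100a9 held 1 match to TTGCNNAA and Ngp held 2. Over the 10 genes, 7 promoters held GAGGAA, against 28.3% of 32851 promoters of the same length, and 4 held TTGCNNAA, against 10.8%. The STAT motif TTCNNNGAA was found in 1 of the 10 (Trem1), against 8.3% of all promoters. The Camp promoter held none of the 3 motifs. These matches are descriptions of letters, and no binding was measured. S100a8 and S100a9 are neighbours on chromosome 3, and Ngp, Camp and Ltf all lie on chromosome 9.

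The lung label was checked first: 9 lung genes were bright on every array, among them the surfactant gene Sftpc with signals of 9531 to 11074. Pearson correlations between arrays over all probe sets ran from 0.9655 to 0.9939. One array stood apart. On the array labelled control replicate 4, a list of 16 measured targets of the DNA-damage factor p53 averaged a log2 level of 10.02, against 9.31 to 9.59 on the other 12 unirradiated arrays and 9.84 to 10.07 on the 12 irradiated arrays. That array also had the highest control signal for S100a8, S100a9, Csf3r, Cxcr2, Trem1, Stfa2l1 and Lcn2. Radiation against control is therefore given with and without it for each of the 10 genes. Their other comparisons with control are given without it where that changed a call or is named. Values of all other genes are given only with that array in the fit.

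Radiation alone raised 5 of the 8 tested genes above control: Stfa2l1, Csf3r, S100a9, S100a8 and Trem1. Of all genes tested, 2.29% were called higher in this comparison at an adjusted p of at most 0.05 (limma, Benjamini-Hochberg). Cxcr2, which was fitted only without the filter, went the same way. The granule genes Ngp, Lcn2 and Ltf did not pass the test. The median log2 fold change over the 10 genes was 2.04, beside -0.01 over all genes tested, and 9 of the 10 values were above 0.

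Stfa2l1 encodes a stefin A-like protein, one of a mouse family of inhibitors of cysteine proteases. Its signal was 2946, 1059 and 498 in irradiated lungs, against 57.4, 52.8, 51.5 and 134 in control lungs. The lowest irradiated array was above the highest control array. Its log2 fold change was 3.80 ± 0.46 (SE, adjusted p = 0.000181), or 13.9-fold, and 4.08 (adjusted p = 4.57e-05) without control replicate 4. The value was 3.14 (adjusted p = 0.00168) without radiation replicate 1 and 4.40 (adjusted p = 2.26e-05) without radiation replicate 3.

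Csf3r, through which granulocyte colony-stimulating factor acts, had signals of 2206, 1390 and 895 in irradiated lungs, against 75.3, 83.3, 147 and 281 in control lungs. The groups did not overlap. The log2 fold change was 3.29 ± 0.46 (adjusted p = 0.000357), or 9.79-fold, and 3.64 without control replicate 4.

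Cxcr2, the receptor by which neutrophils follow chemokines such as Cxcl1 and Cxcl2, had signals of 655, 417 and 168 in irradiated lungs, against 21.6, 19.6, 34.6 and 65.2 in control lungs. All irradiated arrays again lay above all control arrays. In the fit of all 18193 genes without the filter its log2 fold change was 2.96 ± 0.42 (adjusted p = 0.000482), and 3.21 without control replicate 4.

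S100a9 and S100a8 encode the 2 subunits of calprotectin, which makes up much of the protein of neutrophil cytosol. S100a9 had signals of 8868, 8150 and 4856 in irradiated lungs, against 419, 748, 728 and 1884 in control lungs. S100a8 had signals of 10020, 9472 and 6363 in irradiated lungs, against 951, 1430, 1405 and 3225 in control lungs. For both genes the groups did not overlap, and the highest control value was that of replicate 4. The log2 fold change was 3.09 ± 0.51 for S100a9 (adjusted p = 0.00129) and 2.41 ± 0.44 for S100a8 (adjusted p = 0.00274). Without control replicate 4 these were 3.49 and 2.75.

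Trem1, an activating receptor of neutrophils and monocytes, changed least of the genes called. Its signal was 214, 253 and 151 in irradiated lungs, against 83, 69.6, 66.1 and 88.7 in control lungs, again without overlap. The log2 fold change was 1.24 ± 0.21 (adjusted p = 0.00129), or 2.36-fold, and 1.30 without control replicate 4. A second Trem1 probe set stayed between 0.92 and 8.16 on every array, near the bottom of the scale, and gives no measure of the gene.

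The groups of radiation and control did not overlap for 6 of the 10 genes, against 13.8% of all genes tested. These were the 6 genes described so far.

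**Figure D1:**
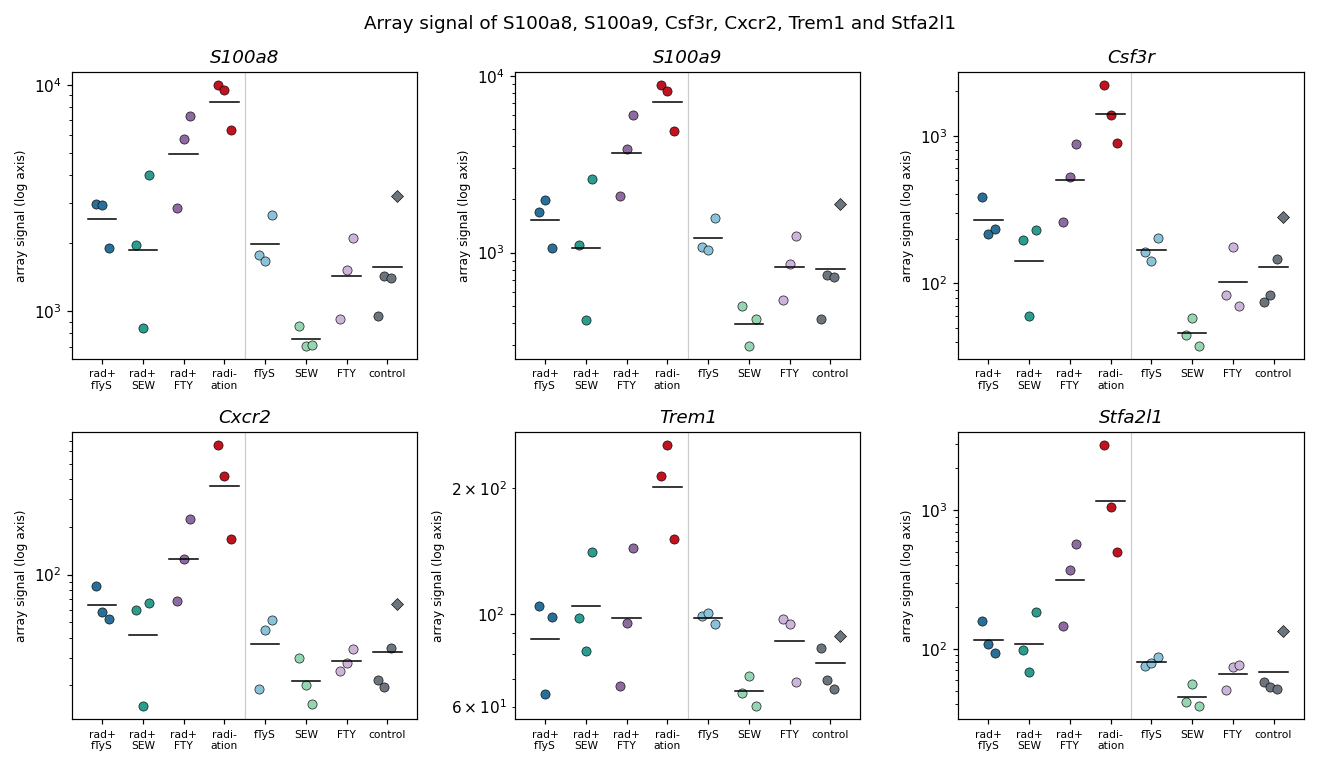
Array signal (log axis) of S100a8, S100a9, Csf3r, Cxcr2, Trem1 and Stfa2l1 in the 8 groups, irradiated groups left of the grey line. Each point is 1 array, the diamond is control replicate 4 and the bar is the mean taken on the log2(signal + 16) scale; in all 6 panels the radiation arrays lie above every control array.

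The genes of secondary granules were not called after radiation with all arrays in the fit, and Ngp, Camp and Ltf varied widely between arrays of a group. Ngp, a protein of the cathelin family named for neutrophil granules, had signals of 178, 285 and 343 in irradiated lungs, against 29.9, 189, 99.1 and 35.6 in control lungs. Only the lowest irradiated array and the highest control array overlapped. Its log2 fold change was 1.67 ± 0.79 (adjusted p = 0.285) and did not pass the test, nor did the value without control replicate 4, 1.42 (adjusted p = 0.382).

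Camp, the cathelicidin gene, had signals of 61.3, 149 and 172 in irradiated lungs, against 30, 179, 83.8 and 17.8 in control lungs. The groups overlapped, and the log2 fold change in the fit without the filter was 0.85 ± 0.75 (adjusted p = 0.7), and 0.47 (adjusted p = 0.855) without control replicate 4.

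Lcn2, which binds bacterial iron carriers, had signals of 5296, 3397 and 3107 in irradiated lungs, against 2601, 1650, 2087 and 4518 in control lungs. Only control replicate 4 overlapped with the irradiated arrays. The log2 fold change was 0.60 ± 0.27 (adjusted p = 0.25), and without control replicate 4 it was 0.88 (adjusted p = 0.0244), which passed the test. Leaving that array out therefore gave a count of 6 of the 8 genes in place of 5. The replicate block, which also takes that array out, gave 0.88 (adjusted p = 0.0187) and a count of 6.

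Ltf, the iron-binding protein lactoferrin, was the only one of the 10 with a value below 0. Its signal was 576, 990 and 903 in irradiated lungs, against 901, 3850, 2971 and 709 in control lungs. Control replicates 2 and 3 lay above the irradiated arrays, and replicates 1 and 4 lay within their range. The log2 fold change was -1.03 ± 0.84 (adjusted p = 0.601), and -1.42 (adjusted p = 0.411) without control replicate 4.

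**Figure D2:**
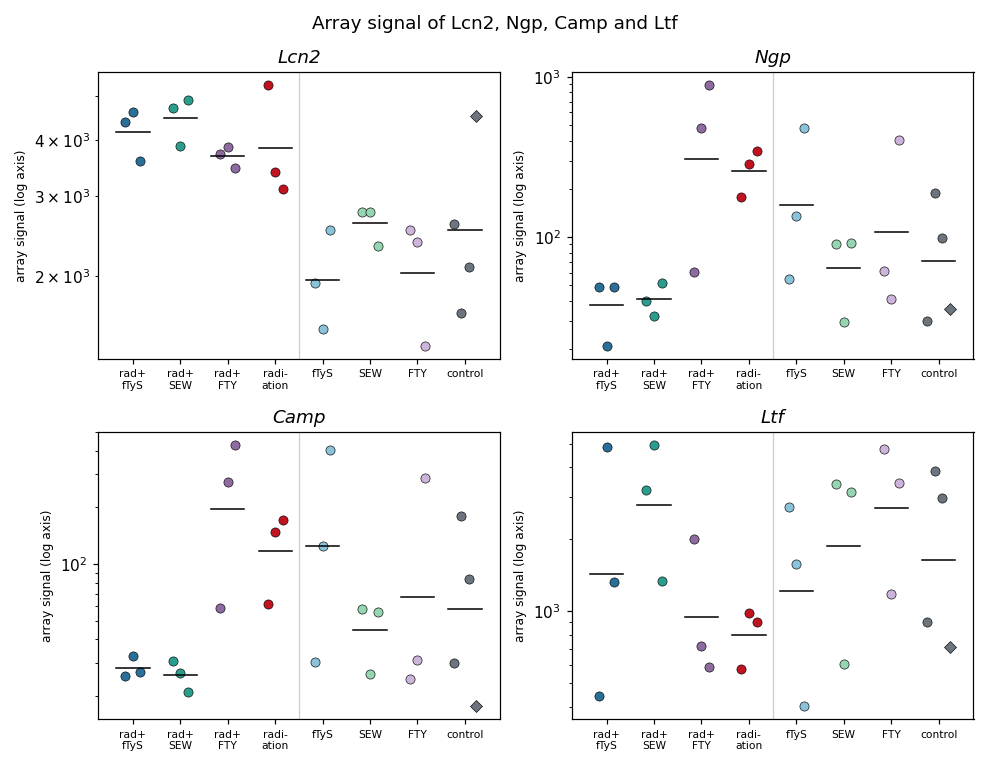
Array signal (log axis) of Lcn2, Ngp, Camp and Ltf in the 8 groups, drawn as in the plot of the other 6 genes. Ngp and Camp vary widely between arrays of radiation+FTY, fTyS, FTY and control and are low on all radiation+fTyS and radiation+SEW arrays; Ltf varies several-fold within most groups.

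Adding fTyS to radiation was compared with radiation alone. Stfa2l1, Csf3r and Trem1 fell, 3 of the 8 tested genes, against 0.441% of all genes called lower. The median log2 fold change over the 10 genes was -1.96, beside 0.01 over all genes tested. The groups did not overlap for 8 of the 10 genes, against 17.7% of all genes tested. The 2 that overlapped were Lcn2 and Ltf.

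Stfa2l1 had signals of 158, 108 and 92.8 in radiation+fTyS lungs, against the radiation values above, and its log2 fold change was -3.15 ± 0.49 (adjusted p = 0.0058). Csf3r had signals of 386, 216 and 233 (log2 fold change -2.31 ± 0.49, adjusted p = 0.0323). Trem1 had signals of 104, 64.4 and 98 (-1.08 ± 0.22, adjusted p = 0.0252). All 3 genes were lower on every radiation+fTyS array than on any radiation array.

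The calprotectin genes and Cxcr2 had values of like size but did not all pass. S100a9 had signals of 1701, 1986 and 1058 in radiation+fTyS lungs, with a log2 fold change of -2.19 ± 0.55 (adjusted p = 0.0622). With the replicate number as a block S100a9 was called (adjusted p = 0.0484), and the count was 4 of 8. S100a8 had signals of 2977, 2938 and 1911, with -1.72 ± 0.47 (adjusted p = 0.0894). Neither overlapped with radiation. Cxcr2 had signals of 84.6, 58.1 and 52.5, with -2.24 ± 0.45 (adjusted p = 0.0285) in the fit without the filter.

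Ngp had signals of 48.7, 21 and 49 in radiation+fTyS lungs, against 178, 285 and 343 in radiation lungs, and Camp had 25.6, 32.8 and 26.8 against 61.3, 149 and 172. Both were lower on every array, but the log2 fold change of Ngp, -2.36 ± 0.84, did not pass (adjusted p = 0.208), nor did that of Camp without the filter, -1.59 ± 0.80 (adjusted p = 0.51). Lcn2 had signals of 4378, 4605 and 3585 in radiation+fTyS lungs, within the range of radiation (0.12 ± 0.28, adjusted p = 0.886). Ltf ran from 443 to 4878 there (0.82 ± 0.90, adjusted p = 0.77).

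Stfa2l1 kept its call when any array of these groups was left out, with -2.48 without radiation replicate 1 and -3.75 without radiation replicate 3. The count was 1 without radiation replicate 1 or 2, or without radiation+fTyS replicate 2 or 3. Csf3r also lost its call without radiation+fTyS replicate 1 (adjusted p = 0.0532). With only the 6 arrays fitted, 0 of 8 were called.

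Adding SEW to radiation gave lower levels of 5 of the 8 tested genes than radiation alone: Stfa2l1, Csf3r, S100a9, S100a8 and Trem1. Of all genes tested, 1.11% were called lower. The median over the 10 genes was -2.22, beside 0.03 over all genes tested. The groups did not overlap for 9 of the 10 genes, all but Lcn2, against 27.1% of all genes tested.

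Stfa2l1 had signals of 98.3, 68.4 and 183 in radiation+SEW lungs (log2 fold change -3.24 ± 0.49, adjusted p = 0.00339). Csf3r had signals of 198, 59.8 and 228 (-3.16 ± 0.49, adjusted p = 0.00339). S100a9 had signals of 1106, 418 and 2598 (-2.71 ± 0.55, adjusted p = 0.014). In each of these genes replicate 2 was the lowest array of the group.

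S100a8 had signals of 1962, 842 and 3998 in radiation+SEW lungs (-2.16 ± 0.47, adjusted p = 0.0206). Trem1 had signals of 97.8, 81.5 and 141 (-0.86 ± 0.22, adjusted p = 0.0431). Cxcr2 had signals of 59.8, 14.8 and 65.9 (-2.71 ± 0.45, adjusted p = 0.00535 in the fit without the filter). Replicate 2 was again the lowest.

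Ngp had signals of 39.8, 32.4 and 51.6 in radiation+SEW lungs (-2.28 ± 0.84, adjusted p = 0.158), and Camp had 30.9, 26.6 and 21.1. Ltf had signals of 3222, 4951 and 1343, above every radiation array, but its log2 fold change of 1.77 ± 0.90 did not pass (adjusted p = 0.322). Lcn2 had signals of 4719, 3880 and 4899 (0.23 ± 0.28, adjusted p = 0.72).

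Csf3r and Stfa2l1 were called without any single array. Stfa2l1 had -2.58 without radiation replicate 1 and -3.84 without radiation replicate 3, and S100a9 had -2.05 and -3.34 without radiation+SEW replicate 2 and 3. The count was 2 without radiation replicate 1 or 2 or without radiation+SEW replicate 2, and 3 without radiation+SEW replicate 1. S100a8 and Trem1 lost their call in all 4 of these fits and S100a9 in 3. With only the 6 arrays fitted, the count was 2, now Csf3r and Ngp.

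Adding FTY to radiation gave lower levels of Trem1 and Stfa2l1 than radiation alone, 2 of the 8 tested genes, against 1.08% of all genes called lower. The median over the 10 genes was -0.85, beside 0.03 over all genes tested. The groups did not overlap for 2 of the 10 genes, Csf3r and Trem1, against 27.7% of all genes tested.

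Trem1 had signals of 67.2, 94.8 and 144 in radiation+FTY lungs (-0.94 ± 0.22, adjusted p = 0.0302). Stfa2l1 had signals of 146, 370 and 570 (-1.83 ± 0.49, adjusted p = 0.0496). The highest Stfa2l1 array of this group lay above the lowest radiation array. Both calls were lost without radiation replicate 1 or 2 and without radiation+FTY replicate 1 or 2, where the count was 0. Stfa2l1 then had adjusted p-values of 0.0761 to 0.232, and its value was -1.16 without radiation replicate 1 and -2.42 without radiation replicate 3.

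Csf3r lay below every radiation array, and S100a8, S100a9 and Cxcr2 overlapped with radiation. Csf3r had signals of 262, 528 and 874 in radiation+FTY lungs (-1.47 ± 0.49, adjusted p = 0.0917). S100a8 had 2859, 5762 and 7298 (-0.77 ± 0.47, adjusted p = 0.33) and S100a9 had 2093, 3844 and 5990 (-0.95 ± 0.55, adjusted p = 0.303). Replicate 3 was the highest array of the group and replicate 1 the lowest in each of the 6 genes from S100a8 to Stfa2l1.

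Ngp had signals of 60.5, 476 and 890 in radiation+FTY lungs and Camp had 58.5, 273 and 427. Replicates 2 and 3 lay above every radiation array for both genes, and replicate 1 lay below every one. The log2 fold change of Ngp was 0.23 ± 0.84 (adjusted p = 0.899). Lcn2 stayed within the range of radiation at 3726, 3850 and 3464.

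**Figure D3:**
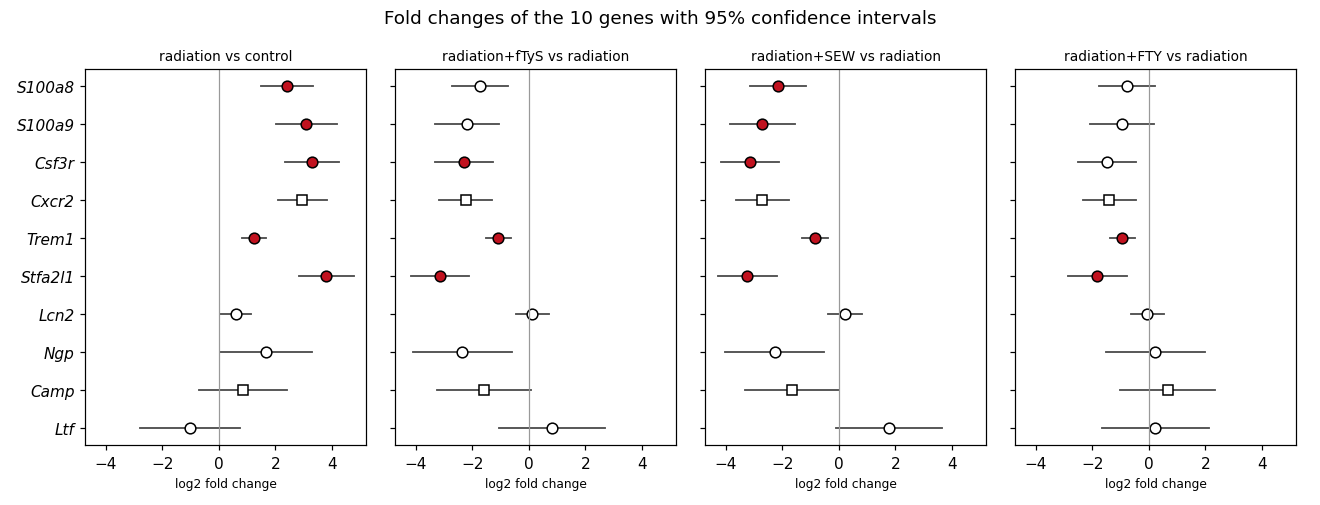
Log2 fold changes of the 10 genes with 95% confidence intervals for radiation against control and for each compound added to radiation against radiation alone. Red points passed the adjusted p of 0.05, open circles did not, and open squares (Cxcr2 and Camp) come from the fit without the filter; the upper 6 genes lie right of 0 in the first panel and left of 0 in the other 3.

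These 3 comparisons share the 3 radiation arrays, so their values are not independent of each other. The compounds were then set directly against each other in irradiated lungs, and none of the 8 tested genes was called between any pair in the fit used throughout. For radiation+fTyS against radiation+FTY, 0 of 8 were called (limma), beside 3.95% of all genes, and 3 had an unadjusted p under 0.05. The largest of these differences were Ngp (-2.59 ± 0.84, adjusted p = 0.0832) and Stfa2l1 (-1.32 ± 0.49, adjusted p = 0.129). S100a9 had -1.24 (95% interval -2.39 to -0.10). Array weights called these 3 genes, and the replicate block called Ngp (adjusted p = 0.0486).

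For radiation+FTY against radiation+SEW, 0 of 8 were called, beside 0% of all genes, and 5 had an unadjusted p under 0.05. Ngp had 2.52 (95% interval 0.76 to 4.27, adjusted p = 0.513). Csf3r had 1.70 (0.67 to 2.73), S100a9 had 1.75 (0.61 to 2.90), S100a8 had 1.39 (0.40 to 2.37) and Stfa2l1 had 1.42 (0.39 to 2.45). The groups did not overlap for 5 of the 10 genes (Csf3r, Cxcr2, Lcn2, Ngp and Camp), against 15.4% of all genes tested. For radiation+fTyS against radiation+SEW, 0 of 8 were called, beside 0% of all genes, and 0 had an unadjusted p under 0.05. Csf3r there had 0.85 (-0.18 to 1.88) and Stfa2l1 had 0.10 (-0.94 to 1.13). These intervals include differences of 2-fold, so they do not show that the compounds act alike.

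The irradiated groups were next set against their unirradiated counterparts. With FTY, radiation raised 4 of the 8 genes, against 9.13% of all genes called higher. Csf3r had a log2 fold change of 2.12 ± 0.49 (adjusted p = 0.0091), Stfa2l1 of 2.01 ± 0.49 (adjusted p = 0.0122), S100a9 of 2.11 ± 0.55 (adjusted p = 0.0166) and S100a8 of 1.77 ± 0.47 (adjusted p = 0.0187). FTY lungs had S100a9 signals of 536, 866 and 1244 and Csf3r signals of 83.3, 177 and 69.8. The count was 2 without FTY replicate 1, 1 without radiation+FTY replicate 3 and 1 with only the 6 arrays fitted, and S100a8 also lost its call without radiation+FTY replicate 2.

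With SEW, 0 of the 8 genes were called (limma), although 13.8% of all genes were called higher, and 5 had an unadjusted p under 0.05. Csf3r had 1.34 ± 0.49 (adjusted p = 0.0653), S100a8 had 1.29 ± 0.47 (adjusted p = 0.0643) and Lcn2 had 0.77 ± 0.28 (adjusted p = 0.065). Without radiation+SEW replicate 2 the count was 3, S100a8, S100a9 and Csf3r.

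With fTyS, 0 of the 8 genes were called (limma), beside 0.332% of all genes called higher, and 1 had an unadjusted p under 0.05. That gene was Lcn2, with 4378, 4605 and 3585 in radiation+fTyS lungs, against 1929, 1524 and 2529 in fTyS lungs (1.09 ± 0.28, adjusted p = 0.0902). Lcn2 passed with the replicate number as a block, where the count was 1. For radiation+fTyS against control the block also gave a count of 1, again Lcn2. Control replicate 4 is the only array with that number, so the block takes it out of every comparison with control, and Lcn2 was also called there without that array alone.

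Against control, radiation+FTY had 4 of the 8 genes higher, beside 4.9% of all genes. These were S100a9 (2.14 ± 0.51, adjusted p = 0.0169), Stfa2l1 (1.98 ± 0.46, adjusted p = 0.0154), Csf3r (1.82 ± 0.46, adjusted p = 0.0208) and S100a8 (1.64 ± 0.44, adjusted p = 0.0276). Without control replicate 4 the values were 2.54 for S100a9, 2.25 for Stfa2l1, 2.17 for Csf3r and 1.98 for S100a8, and Lcn2 was called too (0.82, adjusted p = 0.0251), a count of 5. The count was 2 without control replicate 1 or 2 or radiation+FTY replicate 2, and 0 without radiation+FTY replicate 3. S100a8 also lost its call without control replicate 3.

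Radiation+fTyS had 0 of the 8 genes higher than control (limma), beside 0% of all genes, with 2 at an unadjusted p under 0.05. Csf3r had 0.98 (95% interval 0.01 to 1.94) and Lcn2 had 0.72 ± 0.27 (adjusted p = 0.267). Radiation+SEW also had 0 of 8 (limma), beside 0.0928% of all genes, with 1 at an unadjusted p under 0.05. That 1 was Lcn2 (0.82 ± 0.27, adjusted p = 0.117). In both comparisons Lcn2 was called without control replicate 4, for radiation+SEW with 1.10 (adjusted p = 0.0105).

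The interaction terms asked whether the effect of radiation differed between mice with a compound and mice without. With fTyS the effect was smaller for Stfa2l1 (-3.34 ± 0.68, adjusted p = 0.0264) and Trem1 (-1.38 ± 0.30, adjusted p = 0.0326), 2 of 8 genes, beside 0.363% of all genes called lower. Ngp (-3.37 ± 1.15, adjusted p = 0.149) and S100a9 (-2.76 ± 0.75, adjusted p = 0.0705) did not pass. With the replicate block the count was 4, with S100a9 and Csf3r. The count ranged from 0 to 4 when 1 array was left out. It was 4 without control replicate 4 and 0 without control replicate 3, fTyS replicate 2, radiation replicate 2 or radiation+fTyS replicate 3. It was 1 without control replicate 2, fTyS replicate 1, radiation replicate 1 or radiation+fTyS replicate 2. Stfa2l1 had -2.68 without radiation replicate 1 and -3.94 without radiation replicate 3.

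With SEW the effect was smaller for Stfa2l1 (-2.78 ± 0.68, adjusted p = 0.012), 1 of 8, beside 3.41% of all genes, and this call was kept without any single array, at -2.11 without radiation replicate 1 and -3.37 without radiation replicate 3. Csf3r (-1.95 ± 0.68, adjusted p = 0.0598) passed without control replicate 4 and without radiation replicate 3, where the count was 2. With FTY the effect was smaller for Trem1 (-1.08 ± 0.30, adjusted p = 0.0367), 1 of 8, beside 2.07% of all genes. The count for FTY was 2 without radiation replicate 3. It was 0 without control replicate 2 or 3, FTY replicate 1 or 2, radiation replicate 1 or 2, or radiation+FTY replicate 1 or 2.

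Without radiation, none of the 8 tested genes was called for any compound against control. For SEW 0 of 8 were called (limma), beside 14.6% of all genes, and 2 had an unadjusted p under 0.05. S100a8 had signals of 866, 705 and 713 in SEW lungs, below all control arrays, with a log2 fold change of -1.04 ± 0.44 (adjusted p = 0.116). Csf3r had 44.9, 57.9 and 37.8, also below all control arrays (-1.22 ± 0.46, adjusted p = 0.081). Between SEW and control, 27.6% of all genes tested did not overlap. Without control replicate 4 these were -0.70 and -0.87, and without control replicate 1 Csf3r was called.

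For fTyS 0 of 8 were called, beside 0.178% of all genes, and for FTY 0 of 8, beside 2.73% of all genes, with 0 at an unadjusted p under 0.05 in both (limma). Trem1 was above every control array in fTyS lungs, at 98.8, 100 and 94.3 (0.30 ± 0.21, adjusted p = 0.475), and 11% of all genes tested did not overlap there. Stfa2l1 had signals of 75.6, 79.4 and 87.5 in fTyS lungs and 50.7, 74.1 and 76.8 in FTY lungs.

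Among the compounds without radiation, 0 of 8 genes were called for fTyS against SEW (limma), beside 1.55% of all genes, and 4 had an unadjusted p under 0.05. S100a8, S100a9, Csf3r, Trem1 and Stfa2l1 were each higher on every fTyS array than on any SEW array, 5 of the 8 tested genes, and groups did not overlap in either direction for 25.6% of all genes tested. The values were 1.38 (95% interval 0.39 to 2.36) for S100a8, 1.57 (0.42 to 2.71) for S100a9 and 1.55 (0.52 to 2.58) for Csf3r. For fTyS against FTY and for FTY against SEW, 0 of 8 were called (limma), beside 0% of all genes in each, with 0 at an unadjusted p under 0.05. Csf3r had 0.63 (-0.40 to 1.66) for fTyS against FTY and 0.92 (-0.11 to 1.95) for FTY against SEW.

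Ranked by group mean, radiation was highest for S100a8, S100a9, Csf3r, Cxcr2, Trem1 and Stfa2l1, and SEW was lowest for all 6. Radiation+FTY came second for 5 of them and radiation+SEW second for Trem1. Most neighbours in these orders overlapped. Csf3r had 3 pairs of neighbours that did not: radiation over radiation+FTY, radiation+fTyS over fTyS, and FTY over SEW. In these pairs 27.7%, 15.8% and 18.1% of all genes tested did not overlap in either direction. S100a8 had only FTY over SEW. S100a9 had only radiation+FTY over radiation+fTyS (21.6% of all genes tested did not overlap). Trem1 had only radiation over radiation+SEW (27.1% of all genes), while Cxcr2 and Stfa2l1 had none. Between the highest and lowest group means Csf3r spanned 22.7-fold, Stfa2l1 19.3-fold, S100a9 17.1-fold, S100a8 10.9-fold, Cxcr2 10.1-fold and Trem1 2.68-fold.

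The secondary granule genes ranked otherwise. Ngp and Camp were highest in radiation+FTY, and lowest in radiation+fTyS for Ngp and in radiation+SEW for Camp, with no neighbours apart. Ltf was highest in radiation+SEW and lowest in radiation, and Lcn2 was highest in radiation+SEW and lowest in fTyS. For Lcn2 the 4 irradiated groups held the first 4 places, and only radiation+FTY and the next group, SEW, did not overlap. The share of all genes apart in that pair was not counted.

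**Figure D4:**
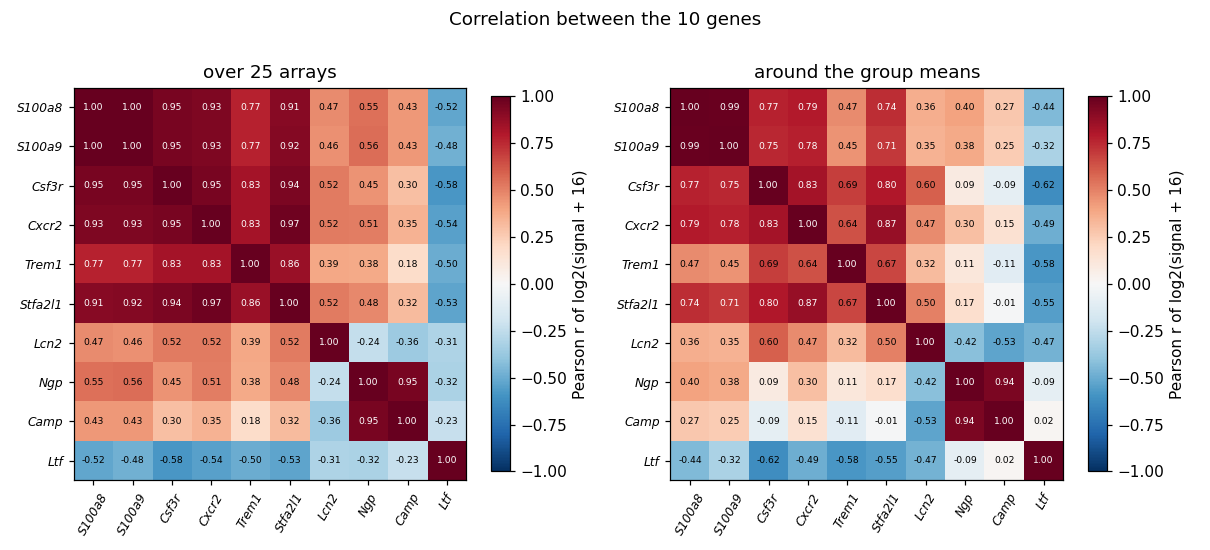
Pearson correlation of log2(signal + 16) between the 10 genes, over all 25 arrays (left) and after subtracting each group's mean (right). The 6 genes from S100a8 to Stfa2l1 form a block in both panels, Ngp and Camp form another, and Ltf is negative against the 6.

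Across arrays, the genes fell into sets that were seen only after the values were known. The 15 pairs among S100a8, S100a9, Csf3r, Cxcr2, Trem1 and Stfa2l1 had a median Pearson r of 0.93 over the 25 arrays (range 0.77 to 1) and of 0.75 after subtracting group means (0.45 to 0.99). Ngp and Camp had an r of 0.95 and, within groups, 0.94. Between these sets the median was 0.43 over all arrays and 0.16 within groups. The 2 sets thus shared little of their variation between mice of a group.

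Ltf went against the first 6 genes, with a median r of -0.53 over all arrays and -0.52 within groups. Lcn2 had a median r of 0.50 with them over all arrays and 0.42 within groups. All values of a pair come from the same arrays and share their scaling.

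Outside the 10 genes, the gene most like the mean of the 8 tested genes over the 25 arrays was Mmp9, a matrix protease of tertiary granules (r = 0.951, and 0.782 within groups). Slfn4, of the Schlafen family, followed (0.933 and 0.738). Ifitm6, the lectin receptor Clec4e, the inflammasome sensor gene Mefv, Cd300lb, the cytokine gene Il1b, the lectin receptor Clec4d, the transcription factor gene Nfe2 and Alox5ap of leukotriene synthesis completed the first 10, with r of 0.896 to 0.924. Ltf and Lcn2 had other neighbours, listed one gene at a time as a choice made after seeing the data. Ltf was most like Oit1 (0.949, and 0.947 within groups), then Lgr6 (0.935 and 0.960) and Slc46a3 (0.911 and 0.960). Bpifb1, which encodes a secreted protein of airway epithelium (0.904 and 0.892), and Cnn1 (0.899 and 0.913) completed its first 5. Lcn2 was most like the acute-phase genes Lrg1 (0.940 and 0.839) and Serpina3n (0.923 and 0.870).

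Other receptors of neutrophils rose after radiation alone in 8 of 13 tested cases (of 20 listed), beside 2.29% of all genes. The list median was 1, beside -0.01 over all genes tested. Clec4d (2.69 ± 0.33) and Clec4e (2.65 ± 0.36) encode lectin receptors for microbial glycolipids. Fpr2, a receptor for formyl peptides, had 1.36 ± 0.30, Csf2rb, the shared beta chain of cytokine receptors, 1.18 ± 0.16, and the Fc receptor Fcgr3 1.12 ± 0.18. In radiation+fTyS lungs 3 of the 13 were lower than in radiation lungs, beside 0.441% of all genes. In radiation+SEW lungs 7 were lower, beside 1.11%, and in radiation+FTY lungs 2, beside 1.08%. Clec4d and Csf2rb were called in all 3, with -2.20, -2.30 and -1.41 for Clec4d in the order fTyS, SEW and FTY.

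Of 13 tested genes of secondary and tertiary granules and cytosol, 6 rose after radiation alone, beside 2.29% of all genes. The median of the 13 was 0.58, beside -0.01 over all genes tested. The leading 5 were Mmp9 (2.01 ± 0.26), Wfdc21 (1.75 ± 0.30), Cd177 (1.67 ± 0.33), a surface protein of neutrophils, Adam8 (0.78 ± 0.22) and Cybb (0.55 ± 0.14), a subunit of the oxidase that makes superoxide. Against radiation alone, 1 of the 13 was called lower in radiation+fTyS lungs (Mmp9, -1.70 ± 0.28), 3 in radiation+SEW lungs (Mmp9, -1.89 ± 0.28, with Cybb, -0.90 ± 0.15, and Cyba, -0.43 ± 0.11) and 0 in radiation+FTY lungs (limma). Cd177 was not among them. Of all genes, 0.441% were called lower with fTyS, 1.11% with SEW and 1.08% with FTY. Against their unirradiated counterparts, 5 of the 13 were called higher in radiation+SEW lungs, beside 13.8% of all genes. In radiation+FTY lungs 4 were, beside 9.13%, and in radiation+fTyS lungs 0, beside 0.332%. The 5 with SEW included Cd177 (1.59 ± 0.36), Wfdc21 (1.22 ± 0.32) and Adam8 (1.16 ± 0.23). Cd177 was also called higher in radiation+SEW lungs than in control lungs (1.89 ± 0.33, adjusted p = 0.0297). Of 5 primary granule genes only 1 passed the filter, and it was not called. Of the stefin A cluster next to Stfa2l1, 2 of 6 genes had a probe set of a single gene symbol and 0 passed the filter.

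Among 7 tested receptors and adaptors downstream of calprotectin and Trem1, 4 rose after radiation alone, beside 2.29% of all genes. Tyrobp, the adaptor through which Trem1 signals, had 1.07 ± 0.18, the kinase Syk 0.58 ± 0.16, Hcst 0.49 ± 0.12 and Myd88 0.39 ± 0.09. In radiation+SEW lungs Tyrobp (-0.82 ± 0.19) and Syk (-0.65 ± 0.17) were lower than in radiation lungs, beside 1.11% of all genes. Of 6 tested chemokines and growth factors that act on neutrophils, only Il1b rose (2.36 ± 0.33). Il1b was called lower in all 3 groups with a compound than in radiation lungs (limma). The log2 fold changes were -1.76 with fTyS (adjusted p = 0.0234), -1.81 with SEW (adjusted p = 0.0124) and -1.30 with FTY (adjusted p = 0.0496). Of all genes, 0.441% were called lower with fTyS, 1.11% with SEW and 1.08% with FTY. These comparisons share the radiation arrays. The call with FTY lay just inside the threshold, and whether these calls hold under other settings was not tested.

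Of 8 tested transcription factors of granulocytes, Spi1, which encodes PU.1, rose (0.72 ± 0.11, adjusted p = 0.000927) and Runx1 fell (-0.37 ± 0.09, adjusted p = 0.0186). Of all genes tested, 2.29% were called higher and 2.11% lower after radiation. Spi1 was lower in radiation+SEW lungs than in radiation lungs (-0.52 ± 0.12). Of 4 tested receptors for Lcn2, Ltf and Camp products, only Fpr2, counted above, rose.

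**Figure D5:**
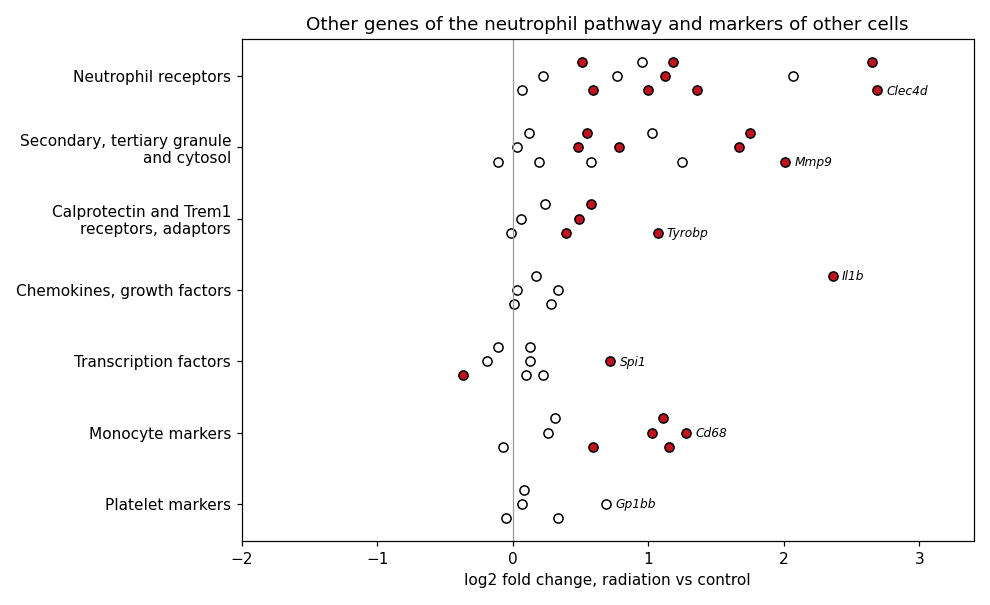
Log2 fold changes of radiation against control for the tested genes of 5 lists of the neutrophil pathway and of monocyte and platelet markers, 1 point per gene, red where the adjusted p was at most 0.05. The gene farthest right in each list is named. Red are 8 of 13 receptors, 6 of 13 granule and cytosol genes, 5 of 8 monocyte markers and 0 of 5 platelet markers. Of all genes tested, 2.29% were called higher.

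Markers of other cells moved with these results in part. Of 8 monocyte and interstitial macrophage markers 5 were called higher after radiation, beside 2.29% of all genes. Among them were Cd68 (1.28 ± 0.23), Itgam (1.15 ± 0.19) and Ccr2 (1.03 ± 0.20). Csf1r (0.26 ± 0.09), Cx3cr1 (0.31 ± 0.19) and Cd14 (-0.07 ± 0.1) were not called. The mean log2 level of the 8 markers ran from 9.10 to 9.74 in radiation lungs, against 8.57 to 8.99 in control lungs. It ran from 9 to 9.15 with radiation+fTyS, from 8.73 to 8.98 with radiation+SEW and from 8.98 to 9.14 with radiation+FTY. The part of these cells in the levels of S100a8, S100a9 and Trem1 was not tested.

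Platelet markers ran from 8.51 to 8.68 in radiation lungs, against 7.96 to 8.77 in control lungs, and 0 of 5 were called in that comparison. They ran from 7.80 to 8.18 with radiation+fTyS and from 7.87 to 8.35 with radiation+SEW, the groups in which Ngp and Camp were low. Gp5 was called lower in radiation+fTyS than in radiation lungs (-0.48 ± 0.10, adjusted p = 0.0273, limma), beside 0.441% of all genes. With radiation+FTY, where the means of both genes were highest, they ran from 8.29 to 8.96. Gp1bb, a platelet glycoprotein gene, was also the gene most like Ngp (r = 0.690) and Camp (r = 0.710) over the 25 arrays. Within groups its r was 0.445 with Ngp and 0.54 with Camp. The mean of 4 erythrocyte markers ran from 6.95 to 7.58 in radiation lungs, against 7.04 to 7.85 in control lungs. It ran from 6.64 to 6.91 with radiation+fTyS, from 6.53 to 7.66 with radiation+SEW and from 7.30 to 8.27 with radiation+FTY. The part of blood held in the lung in the levels of Ngp and Camp was not tested.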

How the data were processed

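Total RNA of whole lung from 25 mice was hybridised to 1 Affymetrix array per mouse, and the authors deposited linear signal intensities, 1 per probe set and array. The submitters' processing notes name GCOS; its version, the summary method, the background correction and the scaling are not given in the sources used here and could not be varied. Depth is not defined for arrays, and their number limits the precision.

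Of 45101 probe sets, 64 were array controls; 34945 had 1 gene symbol in GEO's platform annotation, 932 had several and 9160 none. The deposited intensity was turned into log2(signal + 16). Genes with a mean above the 40th percentile of all probe sets except array controls entered limma 3.58.1 in R 4.3.3 (8 group means over 25 arrays, 17 residual degrees of freedom, moderated with a trend). P-values were two-sided and adjusted within each comparison by Benjamini-Hochberg over 12937 genes; fold changes on this scale understate changes of dim genes. Errors are SE unless named. The fit was tested on simulated data. Figures used matplotlib 3.10.9.

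The members and lists were chosen with earlier results of these data known. Named genes were the 10 genes, at most 5 called genes of each list by size, and the 10 genes most alike by Pearson r. The p53 list, control replicate 4 and the second Trem1 probe set were added after seeing the data. Replicate numbers 1 to 3 recur in all groups and 4 only in control, so the block also takes control replicate 4 out. Same-numbered arrays deviated together (all 3 r over 0.1) in 6 of 19 comparisons, with r of -0.813 to 0.781 over all; there the block is printed where it changed a call. Alternatives covered normalization, pseudocount, filter, probe sets, variance model, arrays fitted, block and each array left out.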

Additional observations from a re-analysis of the deposited data

Results flagged for a closer look

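Among the control arrays, Stfa2l1 had a log2 level of 7.23 on replicate 4, against 6.08, 6.10 and 6.20 on the others, a gap that Dixon's test sets apart. The test flags about 1 in 20 groups by chance, and 10 genes were looked at in the control group, the only group with 4 arrays. Without that array the log2 fold change of Stfa2l1 after radiation was 4.08, beside 3.80 with it.

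The effect of radiation differed between mice with and without a compound in 4 cases, tested by an interaction term (limma). With fTyS it was smaller for Trem1 (-1.38, adjusted p = 0.0326) and Stfa2l1 (-3.34, adjusted p = 0.0264). With SEW it was smaller for Stfa2l1 (-2.78, adjusted p = 0.012). With FTY it was smaller for Trem1 (-1.08, adjusted p = 0.0367). Of all genes tested, 0.363% were called lower in the term with fTyS, 3.41% with SEW and 2.07% with FTY. Only the call of Stfa2l1 with SEW held under all 23 alternatives tried. With fTyS, Trem1 lost its call in 10 of 22 and Stfa2l1 in 5 of 23. With FTY, Trem1 lost its call in 10 of 22. The 3 terms share the radiation and control arrays.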

How the results depend on the processing

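Of the 27 calls of a gene in a comparison, 7 held under every alternative tried on the probe sets used that could give a value: the 5 after radiation alone, Csf3r for radiation+SEW against radiation, and Stfa2l1 in the interaction with SEW. Over the settings tried for single genes, without the second Trem1 probe set taken alone, 2973 of 3128 values kept their side of the threshold. Of the rest, 95 lost and 60 gained a call, and 0 changed direction with a call in either fit. Most of the 3128 values belong to results that were not called, which could not lose a call. The share kept is therefore no measure of how steady the 27 calls were. A change of direction between values that were not called was counted as no change. The second Trem1 probe set, near the bottom of the scale, called Trem1 in none of the 4 comparisons tried, with 0.06 (adjusted p = 0.901) for radiation against control and -0.01, -0.02 and 0.03 for radiation with fTyS, SEW and FTY against radiation. The cause of a moved count was not tested, except that the 60th percentile filter left 5 genes, without Trem1, Stfa2l1 and Ngp, and that fitting only the arrays compared left fewer of them.

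Beside 5 of 8 for radiation against control, the filter at the 60th percentile gave 3. For radiation+fTyS against radiation (3 of 8) it gave 1, array weights 6 and only the arrays compared 0. For radiation+SEW against radiation (5) it gave 3 and only the arrays compared 2. For radiation+FTY against radiation (2), median centring, a pseudocount of 1, no filter, no trend and the replicate block gave 1 each, and the 60th percentile, the mean of probe sets and only the arrays compared gave 0. For the counts of 0, a pseudocount of 1 gave 1 for radiation+SEW against SEW, array weights 5, the replicate block 2 and only the arrays compared 1. Array weights and the replicate block each gave 1 for radiation+fTyS against fTyS and against control, and for radiation+SEW against control. Array weights gave 1 for SEW against control, 4 for fTyS against SEW and 3 for radiation+fTyS against radiation+FTY, where the replicate block gave 1. With only the arrays compared, radiation+FTY had 1 against FTY and 0 against control, beside 4 each.

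For the interaction with fTyS (2), median centring and the mean of probe sets gave 1, the 60th percentile and only the arrays compared 0, array weights 5 and the replicate block 4. For SEW (1), a pseudocount of 64, no filter and the replicate block gave 2, the 60th percentile 0 and array weights 5. For FTY (1), the 60th percentile, the mean of probe sets, the replicate block and only the arrays compared gave 0.

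Leaving out 1 array gave 5 to 6 for radiation against control, and for radiation with fTyS, SEW and FTY against radiation 1 to 3, 2 to 5 and 0 to 2. Against the compound alone it gave 0 to 3 for SEW and 1 to 4 for FTY, and against control 0 to 1 for fTyS and for SEW and 0 to 5 for FTY. SEW against control had 0 to 1. The interactions had 0 to 4, 1 to 2 and 0 to 2 for fTyS, SEW and FTY. The replicate block, which also leaves out control replicate 4, added Lcn2 for radiation against control and for radiation+FTY against FTY and against control and S100a9 for radiation+fTyS against radiation, and ended Trem1 for radiation+SEW against radiation, beside the counts above, and changed no other call.

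Signal near the bottom of the scale limits Cxcr2, Camp and the primary granule genes, which the filter left out, and 3 or 4 arrays per group limit Ngp, Camp and Ltf, whose arrays spread most.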
